A study of Homo sapiens with 4 samples.

Results

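The genes described here encode the machinery that copies DNA: 46 genes, listed by name, out of 61860 in the count table. They fall into the origin recognition complex (ORC), the loading factors, the MCM helicase with MCM10, CDC45 and the GINS complex, the sliding clamp PCNA with its loader RFC, the replicative polymerases, the single-strand binding protein RPA, the enzymes that finish Okazaki fragments, the enzymes that supply deoxynucleotides, and the transcription factor E2F1. The rule that lists them uses no measured value, but the list was chosen with earlier results of these data known. Each of the 46 symbols matched a single identifier. All 46 passed the filter on low counts, and the lowest count of any of them in any sample was 81.

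RNA-seq was carried out on total RNA of HT1376, an established bladder cancer line. The controls (n = 2) received an agent labelled WFI, and the treated samples (n = 2) received 1 nM enfortumab vedotin (EV), both for 48 h. EV is an antibody-drug conjugate that binds nectin-4 and carries monomethyl auristatin E, a drug that blocks microtubule assembly. All samples are of a single line grown in MEM with serum, no genotype differs between the groups, and the labels do not say whether replicates were separate cultures. If they were not, the p-values measure technical spread alone.

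Replication in human cells starts in G1, when ORC, CDC6 and CDT1 load the MCM2-7 ring onto origins; geminin, encoded by GMNN, blocks loading once S phase has begun. Kinases then recruit CDC45 and GINS to turn the ring into an active helicase. Polymerase alpha-primase lays down primers, RFC places PCNA, and polymerases epsilon and delta extend the leading and lagging strands. Many of these genes are transcribed at the G1/S boundary by E2F factors, which the pocket proteins of the RB family hold in check, so their RNA levels are widely read as a sign of proliferation. Drugs that block microtubules are best known for arresting cells in mitosis, the phase after replication.

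Of the 46 genes, 26 rose in EV and 10 fell, and the remaining 10 were not called (edgeR's quasi-likelihood test, Benjamini-Hochberg adjusted over all genes, adjusted p below 0.05). The background was broad: 66% of the 17465 genes tested were called, 34.5% higher and 31.5% lower. Against it, 78.3% of the replication genes were called, 56.5% higher and 21.7% lower, with a median log2 fold change of 0.27 beside 0.02 over all genes tested. A rise of 1 or more on the log2 scale was reached by 7 of the 46 (17.5% of all genes tested) and a fall of that size by 1 (13.3%). The groups did not overlap for 42 of the 46, and for 82.8% of all genes tested.

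PCNA stood apart from the others, with a 6.67-fold rise. The other rises of 1 or more on the log2 scale were those of GMNN, ORC6, E2F1, ORC1, RFC4 and ORC5, and the fall of that size was that of MCM10. Together the 46 genes took 0.342% and 0.343% of counts in the controls and 0.434% in each EV sample. PCNA alone made up 3.66% and 3.64% of these counts in WFI samples, and 17.02% and 16.8% after EV. Without PCNA the other 45 took 0.330% and 0.331% of each control library and 0.360% and 0.361% of each EV library.

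**Figure D1:**
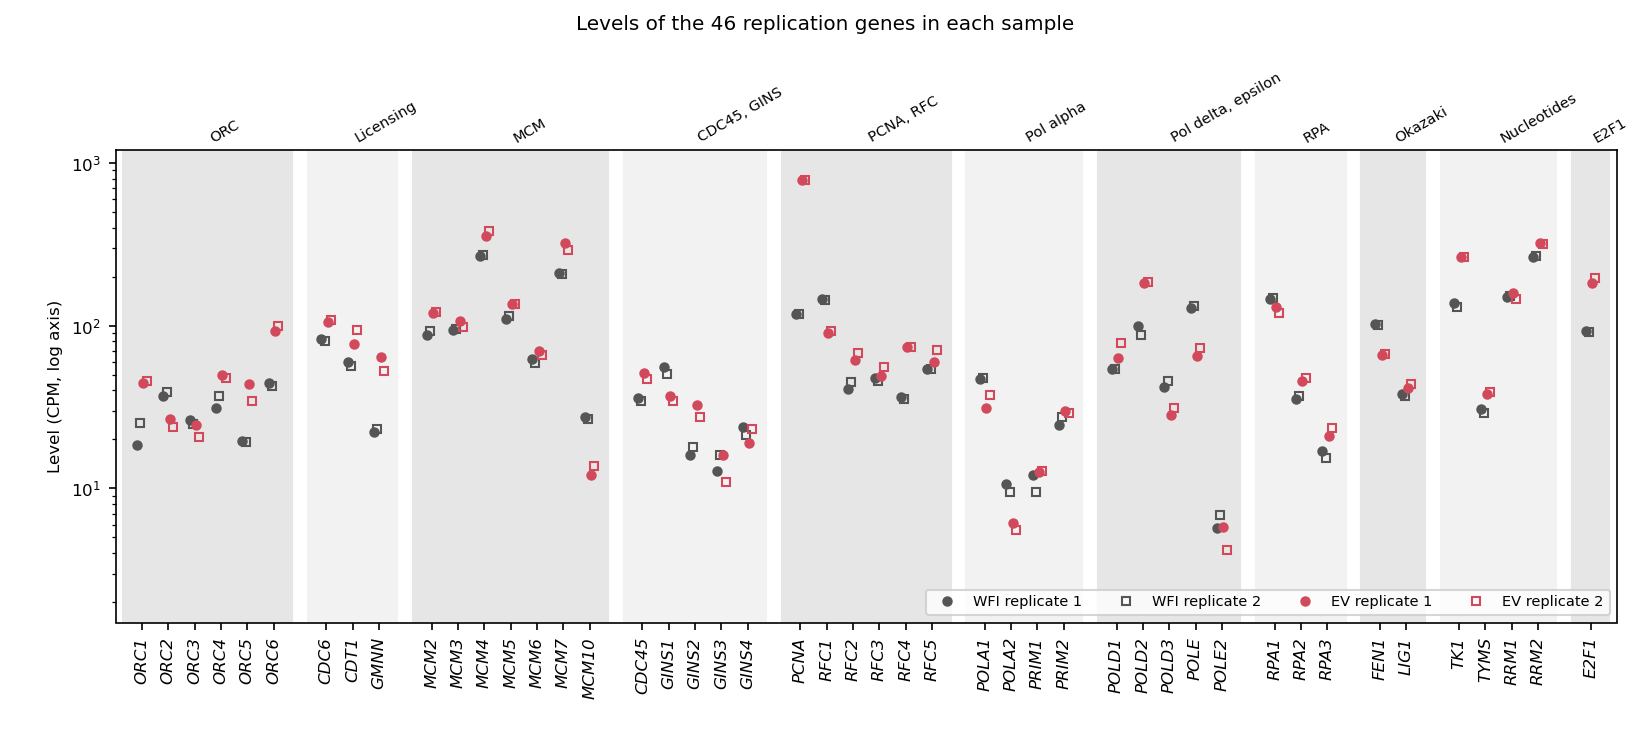
Level of each of the 46 replication genes in each of the 4 samples, in CPM on a log axis, grouped by complex, with controls (WFI) in grey and EV in red. PCNA in EV, at 787 and 782 CPM, lies above all other points.

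Levels are CPM (counts as a share of the library, corrected with TMM factors, which align the bulk of genes between samples), so that each rise or fall is measured against the rest of the library. In bulk RNA a larger share of cells in S phase and more RNA per cell cannot be told apart. TMM factors were 1.06 and 1.07 in the controls against 0.942 and 0.937 in EV. Scaling to total counts alone, chosen after seeing these factors, moved the median log2 fold change of all genes by -0.18. The split then became 19 higher and 12 lower among the 46, and 4920 higher and 6767 lower over all genes tested, where TMM gave 6019 and 5509.

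Total counts ran from 19368791 to 20727175 per sample. Of 13 urothelial and epithelial markers, 4 had 10 or more counts in every sample (KRT7, KRT8, KRT18 and GATA3). KRT20 was at 0 throughout, and CDH1 had 0 and 1 counts in WFI and 9 and 7 after EV. EPCAM had 3 and 6 counts in WFI and 26 and 15 after EV, and KRT19 had 1 and 6 against 0 and 1. Most of the 13 were thus at or near 0 counts in the controls, while KRT7, KRT8 and KRT18 were well counted. The line is named from its label, which most of these markers did not bear out, and its identity was not tested. The summed level of the 13 was 1548 to 1566 CPM in WFI samples and 3373 to 3410 CPM after EV, most of it from keratins: KRT8 stood at 739 and 727 CPM against 1888 and 1903 CPM. GATA3 had 16 and 19 counts in WFI samples and 183 and 195 after EV, and KRT5 went from 0 in both to 97 and 134. The summed level of 7 blood cell markers, a list of leukocyte genes with HBB, ran from 1.55 to 2.29 CPM in the controls and from 42.9 to 43.3 CPM in EV, where ITGAM gave 25.5 and 26.5 CPM and CD79A 10.0 and 8.01 CPM. Of these 7 markers, 1 had 10 or more counts in every sample; CD3E and HBB were at 0 in 3 of the 4 samples, and PTPRC, which marks leukocytes at large, was counted 1 and 3 times in WFI samples and 4 and 9 times after EV. The sum of 4 endothelial markers was 1.501 to 2.49 CPM in the controls and 6.87 to 8.63 CPM in EV, and that of 6 fibroblast markers was 11.3 to 12.2 CPM and 9.66 to 12.6 CPM. The part of such transcripts in the replication values was not tested.

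E2F1, the activator of the G1/S genes, stood at 92.8 and 91.9 CPM in the controls and at 184 and 196 CPM in EV. Both EV samples were thus above both controls, by a log2 fold change of 1.04 (SE 0.05, edgeR adjusted p = 1.13e-08). The RefSeq promoter windows of the replication genes show how common E2F-type words are among them. The windows run from 250 bases before the start site to 50 after it on GRCh38.p14, and 40 of the 46 genes have one; MCM4, MCM5, GINS4, POLD3, RPA2 and RPA3 do not. The words searched on both strands were TTTCCCGC, TTTCGCGC, TTTGCCGC and TTTGGCGC, and TTTCGCGC overlaps TTTGGCGC where they meet on opposite strands. At least 1 word was found in 18 of the 40 windows (45%) and in 1164 of 35116 RefSeq windows of the same length (3.31%). The latter are all such windows and were not matched to the 40 in expression, gene type or base content. The 160 bases before the start site are shown for 4 genes that rose and 2 that fell, with the words in capitals. E2F1, MCM6 and GMNN, which rose, and POLE and POLA1, which fell, all carry TTTGGCGC on one strand or the other, and CDT1, which rose, is shown for TTTCCCGC. The MCM6 call was weak (log2 fold change 0.16, edgeR adjusted p = 0.0471) and was lost in several alternatives given below. That of POLA1 was lost with the principal transcript length and GC offset.
E2F1 (rose; chr20:33686386-33686545, minus strand): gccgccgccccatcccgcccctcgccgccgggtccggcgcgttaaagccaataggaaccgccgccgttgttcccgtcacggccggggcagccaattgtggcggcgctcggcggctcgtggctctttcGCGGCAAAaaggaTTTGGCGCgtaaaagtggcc
MCM6 (rose; chr2:135876444-135876603, minus strand): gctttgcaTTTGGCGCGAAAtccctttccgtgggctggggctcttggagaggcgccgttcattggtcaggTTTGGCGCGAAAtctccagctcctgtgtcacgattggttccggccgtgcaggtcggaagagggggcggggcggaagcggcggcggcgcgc
GMNN (rose; chr6:24775253-24775412, plus strand): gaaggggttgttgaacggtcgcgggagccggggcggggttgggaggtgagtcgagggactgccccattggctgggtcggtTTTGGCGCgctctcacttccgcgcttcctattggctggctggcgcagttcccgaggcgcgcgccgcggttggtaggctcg
CDT1 (rose; chr16:88803629-88803788, plus strand): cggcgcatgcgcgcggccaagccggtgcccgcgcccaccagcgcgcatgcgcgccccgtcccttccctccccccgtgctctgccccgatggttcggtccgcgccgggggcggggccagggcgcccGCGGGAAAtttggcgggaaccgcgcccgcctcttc
POLE (fell; chr12:132687343-132687502, minus strand): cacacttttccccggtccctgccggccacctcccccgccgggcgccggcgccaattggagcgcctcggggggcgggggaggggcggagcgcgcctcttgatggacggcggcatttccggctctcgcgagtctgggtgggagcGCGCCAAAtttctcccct
POLA1 (fell; chrX:24693758-24693917, plus strand): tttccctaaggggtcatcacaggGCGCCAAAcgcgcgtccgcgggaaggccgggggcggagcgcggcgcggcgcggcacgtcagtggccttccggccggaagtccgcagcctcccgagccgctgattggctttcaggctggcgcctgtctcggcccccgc

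MCM6 carried 4 words in 2 overlapping pairs, beginning 152, 148, 90 and 86 bases before its start site, and E2F1 carried 2. Of the 18 genes with a word, 8 rose, 4 fell and 6 were not called, the median log2 fold change being 0.16. Of the 22 whose window held none, 14 rose, 5 fell and 3 were not called, and the median was 0.44. These are descriptions of the windows and no test was made. PCNA, ORC6, RFC4 and TK1 were among the genes without a word. The RefSeq start used for PCNA lies 6668 bases inside the GENCODE gene. For others without a word this distance was 14648 bases in POLD1, 3115 in RFC5, 2825 in PRIM2, 1870 in RRM2 and 1411 in MCM7. Among genes with a word it was 97391 bases in GINS3 and 1119 in GINS2. Other start sites of these genes were not searched.

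Of the 6 ORC genes 4 rose (66.7%) and ORC2 fell (16.7%), beside 34.5% and 31.5% of all genes tested, and ORC3 did not pass. Counts by complex, here and below, were not tested against these shares. ORC6, the smallest subunit, was at 44.4 and 42.4 CPM in the controls and 93.2 and 99.9 CPM in EV. Its groups lie far apart (a log2 fold change of 1.15, SE 0.07, edgeR adjusted p = 5.46e-08). ORC1, the ATPase subunit whose level follows the cell cycle, stood at 18.5 and 25.3 CPM in the controls and 44.7 and 45.5 CPM in EV. The controls differed from each other by more than the EV samples did, and the change (1.04, SE 0.13, edgeR adjusted p = 3.28e-05) was larger than that spread. ORC5 went from 19.6 and 19.2 CPM to 43.5 and 34.3 CPM, and here EV replicate 1 was the higher of the treated samples (1.00, SE 0.12).

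ORC4 rose less, from 31.1 and 37.1 CPM to 49.5 and 47.6 CPM (log2 fold change 0.51, SE 0.10). ORC2, which stays on chromatin with ORC3 as part of the core complex, went the other way, from 36.9 and 39.0 CPM to 26.8 and 24.0 CPM (-0.58, SE 0.10, edgeR adjusted p = 0.000321). ORC3 was at 26.5 and 24.7 CPM in the controls and 24.4 and 20.8 CPM in EV, a log2 fold change of -0.18 (edgeR adjusted p = 0.185); it passed without EV replicate 1 (-0.31, edgeR adjusted p = 0.0376) and with total count scaling (-0.36, 0.0152). The ratio of ORC6 to ORC2 within a sample was 1.20 and 1.09 in the controls against 3.47 and 4.17 in EV. Their principal transcripts differ in length, at 1628 bases for ORC6 and 4312 for ORC2. With an offset for principal transcript length and GC content, described below, ORC6 was at 0.90 and ORC2 at -0.40. Per kilobase of principal transcript, ORC6 was the most abundant ORC transcript in the controls at 26.7 CPM per kb, and ORC4 the least at 5.08 CPM per kb.

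CDC6, CDT1 and GMNN all rose (100%, beside 34.5% of all genes tested), the licensing inhibitor most. GMNN stood at 22.3 and 23.1 CPM in the controls and at 64.4 and 52.7 CPM in EV (a log2 fold change of 1.36, SE 0.11, edgeR adjusted p = 7.21e-07). The EV samples differed from each other, by less than either differed from the controls. CDT1, which brings MCM2-7 to ORC and is bound by geminin, went from 59.5 and 56.6 CPM to 77.4 and 93.4 CPM (0.56, SE 0.09, edgeR adjusted p = 0.000166). CDC6, the loading ATPase, went from 82.5 and 80.6 CPM to 105.0 and 108 CPM (0.39, SE 0.05). The ratio of CDT1 to GMNN within a sample went from 2.67 and 2.45 to 1.20 and 1.77, so the groups did not overlap although the EV samples differed from each other. The change of that ratio was not tested.

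**Figure D2:**
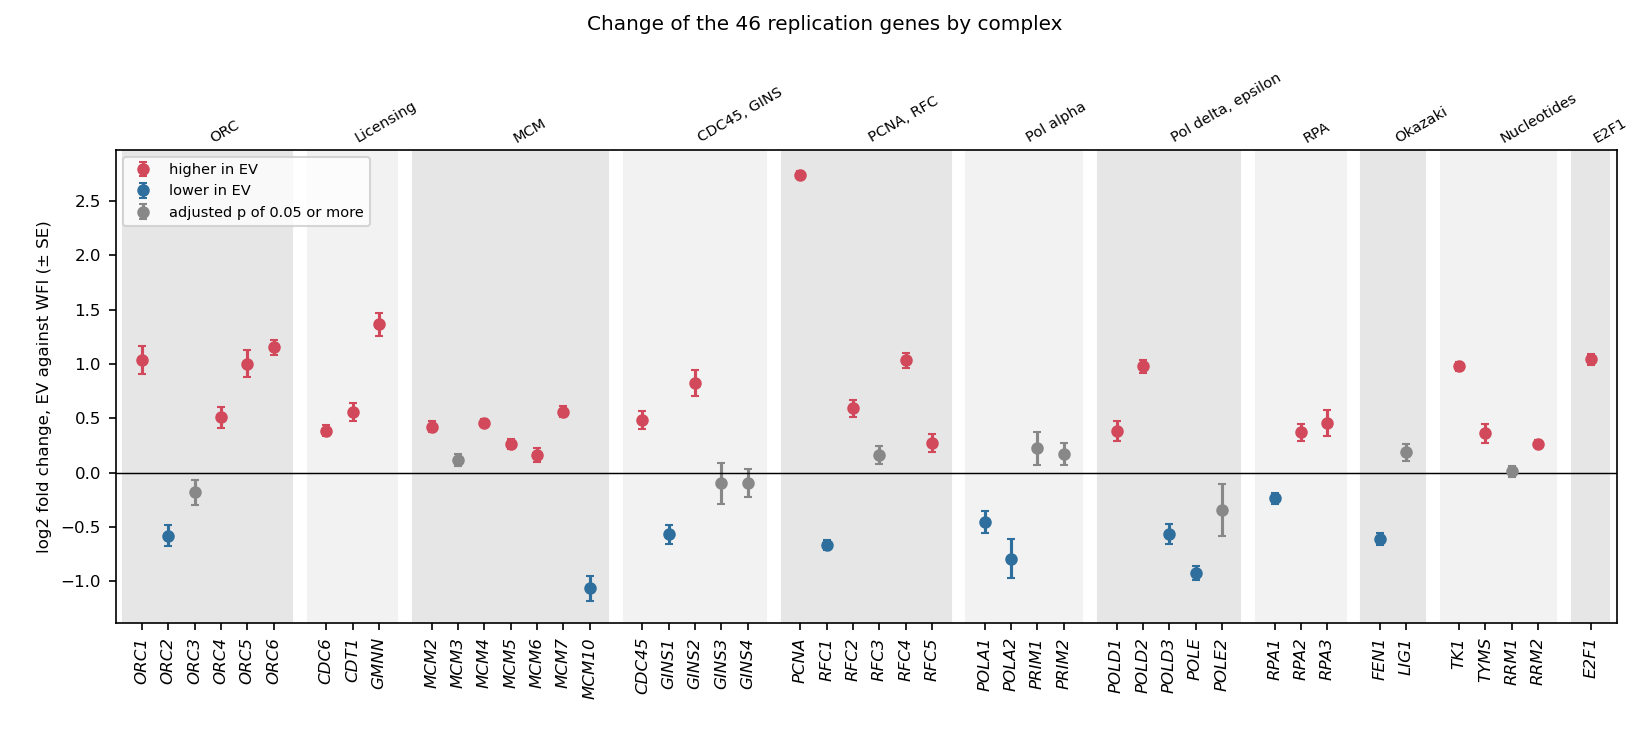
log2 fold change of EV against control with its standard error for the 46 replication genes, grouped by complex; red marks genes called higher, blue genes called lower and grey genes that did not pass. Most complexes hold both red and blue points. The loading factors, the nucleotide genes and E2F1 hold no blue point, and polymerase alpha-primase and the Okazaki genes hold no red point.

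Of the 6 subunits of the MCM2-7 ring, the motor of the replicative helicase, 5 rose (83.3%, beside 34.5% of all genes tested). MCM3 did not pass, and the rises were small. MCM7 had the largest change in the ring, from 209 and 207 CPM to 324 and 291 CPM (a log2 fold change of 0.56, SE 0.05, edgeR adjusted p = 1.86e-06). MCM4 went from 267 and 271 CPM to 358 and 379.6 CPM (0.46, SE 0.04), and MCM2 from 87.8 and 92.1 CPM to 119.8 and 122 CPM (0.43, SE 0.05). MCM5 went from 110.1 and 115 CPM to 135 and 135 CPM, with a log2 fold change of 0.27.

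MCM6 and MCM3 lay close to the limit of what could be told from the controls. MCM6 was at 62.6 and 58.7 CPM in the controls and 69.4 and 66.5 CPM in EV, and its log2 fold change of 0.16 had an edgeR adjusted p of 0.0471. The call was lost without WFI replicate 1 (edgeR adjusted p = 0.187), without WFI replicate 2 (0.544) and without EV replicate 1 (0.144), with no count filter (0.386) and with the merged-exon length and GC offset (0.193), as well as with DESeq2 (adjusted p = 0.095). MCM3 was at 93.4 and 95.7 CPM against 107 and 98.4 CPM (0.12, edgeR adjusted p = 0.0932). It passed without EV replicate 2 (edgeR adjusted p = 0.0227), with upper quartile scaling (0.0197) and with the filter of 50 counts (0.0225). With total count scaling both MCM3 and MCM6 turned slightly negative, at -0.07 and -0.02, while MCM2, MCM4 and MCM7 still passed and MCM5 did not (0.09). In the controls the ring genes ranged from 16.2 CPM per kb for MCM6 to 70.4 CPM per kb for MCM7.

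MCM10, which is not part of the ring and helps to activate it and to bring in polymerase alpha, fell. Its level was 27.5 and 26.5 CPM in the controls and 12.0 and 13.8 CPM in EV (a log2 fold change of -1.06, SE 0.12, edgeR adjusted p = 1.31e-05). Both EV samples were well below both controls, and the value ran from -1.24 to -0.98 over the alternatives tried.

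CDC45 and GINS join MCM2-7 to form the active helicase, and their genes did not move together. CDC45 rose from 36.0 and 34.2 CPM to 51.4 and 47.1 CPM (a log2 fold change of 0.49, SE 0.08, edgeR adjusted p = 0.00039). GINS2 rose from 16.0 and 17.9 CPM to 32.5 and 27.6 CPM (0.82, SE 0.12, edgeR adjusted p = 0.000115). GINS1 fell from 55.3 and 50.6 CPM to 37.0 and 34.5 CPM (-0.57, SE 0.08, edgeR adjusted p = 0.000124).

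The other subunits, GINS3 and GINS4, had overlapping groups. GINS3 was at 12.7 and 16.0 CPM in the controls and 16.1 and 10.9 CPM in EV, and GINS4 at 23.8 and 21.2 CPM and 18.9 and 23.2 CPM. Both had a log2 fold change of -0.10, with edgeR adjusted p of 0.673 and 0.529. GINS1 was the most abundant GINS transcript in the controls at 16.3 CPM per kb, the other 3 lying between 5.86 and 6.35 CPM per kb. In EV GINS1 and GINS2 were close to each other, at 11.003 and 11.3 CPM per kb.

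PCNA, the ring that tethers polymerases to DNA, had the largest change of the 46 genes. It was at 117.8 and 117.3 CPM in the controls and at 787 and 782 CPM in EV, with close replicates in both groups. The log2 fold change was 2.74 (SE 0.03, edgeR adjusted p = 3.65e-13), and it ran from 2.42 to 2.79 over the alternatives. Per kilobase PCNA went from 86.5 to 577 CPM per kb, and thus led the 46 genes in both groups.

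In the RFC complex, which loads PCNA, RFC2, RFC4 and RFC5 rose (60%), the large subunit RFC1 fell (20%) and RFC3 did not pass. Over all genes tested 34.5% rose and 31.5% fell. RFC4 was at 36.6 and 35.6 CPM in the controls and 74.1 and 73.9 CPM in EV (a log2 fold change of 1.04, SE 0.07, edgeR adjusted p = 1.84e-07). RFC1 was at 146 and 144 CPM in the controls and 89.9 and 92.5 CPM in EV (-0.67, SE 0.05, edgeR adjusted p = 3.76e-07). The replicates of both genes were close, so the ratio of RFC4 to RFC1 went from 0.251 and 0.247 to 0.824 and 0.798. The ratio of PCNA to RFC1 went from 0.808 and 0.815 to 8.75 and 8.45. These ratios set short principal transcripts (RFC4 1448 bases, PCNA 1359) against a longer one (RFC1 4859). Longer transcripts tended to have lower log2 fold changes, as described below. With the principal transcript length and GC offset RFC4 was at 0.74, PCNA at 2.43 and RFC1 at -0.42.

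RFC2 rose from 41.1 and 45.1 CPM to 61.8 and 68.1 CPM (log2 fold change 0.59, SE 0.08). RFC5 was at 54.4 and 53.8 CPM in the controls and at 59.5 and 71.2 CPM in EV (0.27, edgeR adjusted p = 0.0153). Without EV replicate 2 the edgeR adjusted p was 0.124, and it was also above the threshold without WFI replicate 1 (0.0652) or WFI replicate 2 (0.0854). RFC3 was at 47.8 and 45.8 CPM against 49.0 and 55.7 CPM (0.16, edgeR adjusted p = 0.105). It passed without EV replicate 1 (edgeR adjusted p = 0.0203), with upper quartile scaling (0.0337) and with the filter of 50 counts (0.033).

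None of the 4 genes of polymerase alpha-primase, which makes the RNA-DNA primers, rose, and 50% fell. Over all genes tested 34.5% rose and 31.5% fell. The catalytic subunit POLA1 fell from 47.0 and 47.5 CPM to 31.2 and 37.7 CPM (a log2 fold change of -0.45, SE 0.10, edgeR adjusted p = 0.00181). Its regulatory partner POLA2 fell from 10.7 and 9.56 CPM to 6.16 and 5.53 CPM (-0.79, SE 0.18, edgeR adjusted p = 0.00242). The primase genes PRIM1 (12.1 and 9.56 CPM against 12.5 and 12.7 CPM) and PRIM2 (24.5 and 27.5 CPM against 29.7 and 28.97 CPM) had log2 fold changes of 0.22 and 0.17, neither past the threshold (edgeR adjusted p = 0.227 and 0.159). PRIM2 passed with the merged-exon length and GC offset (edgeR adjusted p = 0.0356). In both genes the EV samples lay above the controls, and the controls differed from each other by more than the EV samples did.

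Genes of polymerases delta and epsilon went both ways within a single enzyme. POLE, the catalytic subunit of the leading-strand polymerase, fell from 128 and 132 CPM to 64.6 and 73.1 CPM (a log2 fold change of -0.92, SE 0.06, edgeR adjusted p = 2.71e-07). The second subunit, POLE2, was scarce, at 5.71 and 6.88 CPM in the controls and 5.77 and 4.18 CPM in EV, with overlapping groups (-0.34, edgeR adjusted p = 0.227). The small histone-fold subunits rose: POLE3 from 71.2 and 67.1 CPM to 100.6 and 98.3 CPM (0.53, SE 0.06) and POLE4 from 19.8 and 19.5 CPM to 49.9 and 40.7 CPM (1.20, SE 0.11). The ratio of POLE4 to POLE went from 0.154 and 0.147 to 0.771 and 0.556. Their principal transcripts differ in length, at 1248 bases for POLE4 and 7840 for POLE. With the principal transcript length and GC offset POLE4 was at 0.83 and POLE at -0.46.

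POLD2, an accessory subunit of the lagging-strand polymerase, rose from 99.1 and 87.7 CPM to 182 and 186 CPM (a log2 fold change of 0.98, SE 0.06, edgeR adjusted p = 8.06e-08). The catalytic subunit POLD1 was at 53.9 and 54.1 CPM in the controls and 63.0 and 78.0 CPM in EV (0.39, SE 0.09, edgeR adjusted p = 0.00339). POLD3, the subunit that binds PCNA, fell from 42.0 and 45.98 CPM to 28.2 and 31.2 CPM (-0.56, SE 0.09, edgeR adjusted p = 0.000299). The smallest subunit, POLD4, did not pass (-0.17, edgeR adjusted p = 0.4), though it was called lower with the principal transcript length and GC offset (-0.71, 0.00224).

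RPA coats single-stranded DNA as a trimer. RPA1, the large DNA-binding subunit, fell from 146 and 148 CPM to 130.4 and 119.2 CPM (a log2 fold change of -0.23, SE 0.05, edgeR adjusted p = 0.00232). RPA2 rose from 35.6 and 36.9 CPM to 46.01 and 47.7 CPM (0.37, SE 0.08), and RPA3 from 16.995 and 15.4 CPM to 20.9 and 23.6 CPM (0.46, SE 0.12, edgeR adjusted p = 0.00607). The RPA3 call was lost without WFI replicate 2 (edgeR adjusted p = 0.107). All 3 changes were smaller than 1 on the log2 scale, a size at which 17.5% of all genes tested were called higher and 13.3% lower.

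FEN1, the flap nuclease that trims Okazaki fragments, fell from 102 and 101 CPM to 66.4 and 67.2 CPM (a log2 fold change of -0.61, SE 0.05, edgeR adjusted p = 2.31e-06). LIG1, the ligase that seals them, was at 37.8 and 37.1 CPM against 41.3 and 44.0 CPM and did not pass (0.19, edgeR adjusted p = 0.0647). It did pass with RLE scaling (edgeR adjusted p = 0.045), with upper quartile scaling (0.0212), with the filter of 50 counts (0.0219) and without EV replicate 1 (0.0375).

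Of the genes of deoxynucleotide supply, TK1, TYMS and RRM2 rose (75%, beside 34.5% of all genes tested) and RRM1 did not pass. TK1, the salvage kinase for thymidine, went from 137.6 and 130.3 CPM to 264 and 265 CPM (a log2 fold change of 0.98, SE 0.04, edgeR adjusted p = 5.4e-09). TYMS, which makes thymidylate, went from 30.8 and 29.2 CPM to 38.2 and 39.0 CPM (0.36, SE 0.09, edgeR adjusted p = 0.00349), a call lost without WFI replicate 2 (0.0907). RRM2, the small subunit of ribonucleotide reductase and the limiting partner in S phase, went from 263 and 267 CPM to 319.8 and 318 CPM (0.27, SE 0.03, edgeR adjusted p = 4.45e-05).

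RRM1, the large subunit, had overlapping groups, at 150.5 and 152 CPM in the controls and 159 and 146 CPM in EV (log2 fold change 0.01, edgeR adjusted p = 0.857). RRM2B, the form of the small subunit that p53 induces, rose, with a log2 fold change of 0.86 (SE 0.08, edgeR adjusted p = 4.72e-06); its difference from RRM2 was not tested. Its ratio to RRM2 within a sample went from 0.189 and 0.184 to 0.255 and 0.307.

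Longer transcripts tended to have lower log2 fold changes, both among these genes and among the protein coding genes examined. Length is that of the principal transcript in GENCODE release 29, the form that annotation ranks first. Across the 46 genes the log2 fold change and length had a Spearman rho of -0.52, and across 10659 protein coding genes with a mean of at least 4 CPM it was -0.46; genes of a sample share their library and are not independent replicates, so no p is given. Of the 12 replication genes of up to 2000 bases, 10 rose and 0 fell, beside 61.4% and 14.3% of coding genes of that length. Of the 26 between 2000 and 4000 bases, 13 rose and 5 fell, beside 38.6% and 31.4%. Of the 8 longer than 4000 bases, 3 rose (ORC4, CDC6 and MCM4) and 5 fell (ORC2, RFC1, POLA1, POLE and RPA1), beside 17.4% and 63.8%.

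**Figure D3:**
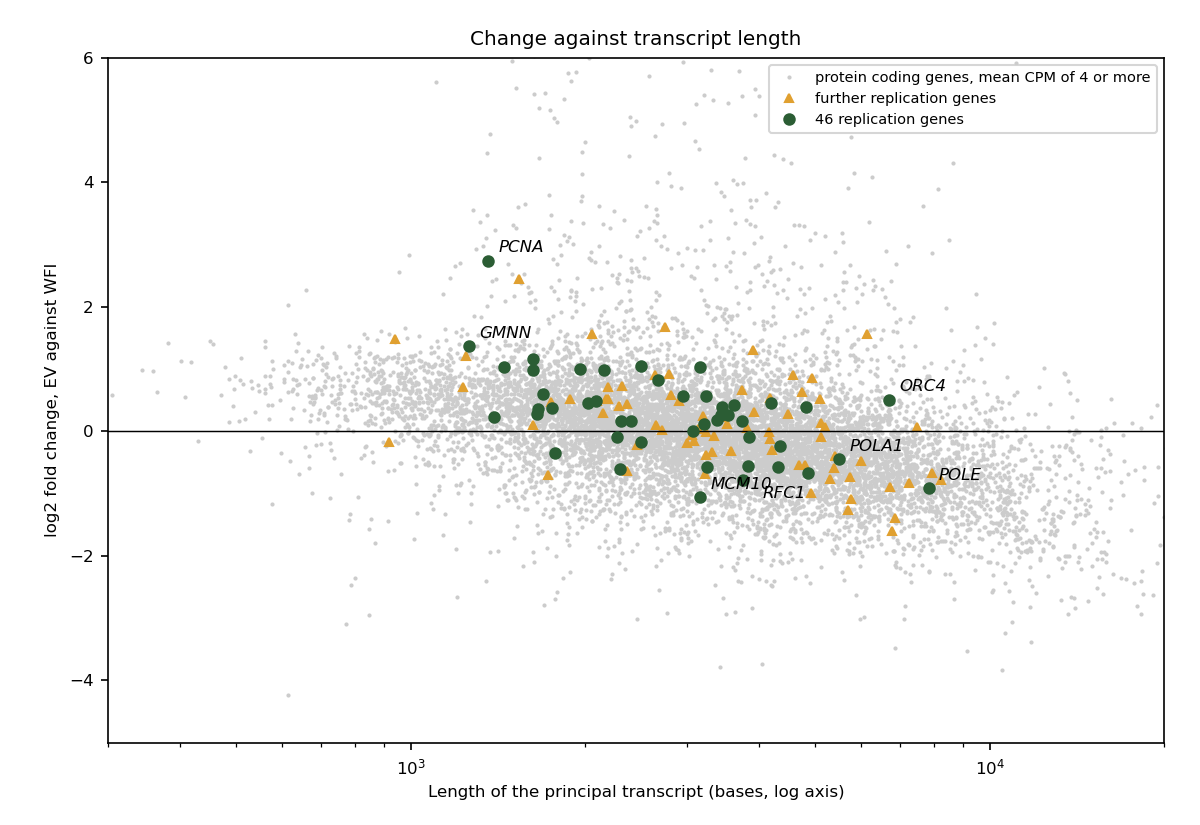
log2 fold change of EV against control by length of the principal transcript on a log axis, for the 46 replication genes (green), 74 further genes of the pathway (orange) and 10657 protein coding genes with a symbol and a mean of at least 4 CPM (grey), of which 56 lie outside the axes. The grey cloud slopes downward, and the green points follow it with PCNA above and MCM10 below the cloud's centre.

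An offset for principal transcript length and GC content, chosen after seeing the data, was put into the model for each sample. With it 21 of the 46 rose and 8 fell, beside 5461 higher and 5374 lower of 17073 genes tested. The median log2 fold change of the 46 went from 0.27 to 0.15. The falls of RFC1 and POLE became -0.42 and -0.46 and still passed, while POLA1 (-0.13) and RPA1 (-0.08) no longer did. Among the rises, the calls of RFC5 (0.02), POLD1 (0.18), RPA2 (0.11), RPA3 (0.27) and TYMS (0.06) were lost. Other rises still passed with a smaller change: TK1 went from 0.98 to 0.57, CDT1 from 0.56 to 0.31, RFC2 from 0.59 to 0.27 and CDC45 from 0.49 to 0.24. PCNA was at 2.43, GMNN at 1.04 and MCM10 at -1.07, while ORC4 went up from 0.51 to 1.11 and CDC6 from 0.39 to 0.62. Across the 46 genes rho was -0.30 after the offset, and -0.07 across the coding genes.

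**Figure D4:**
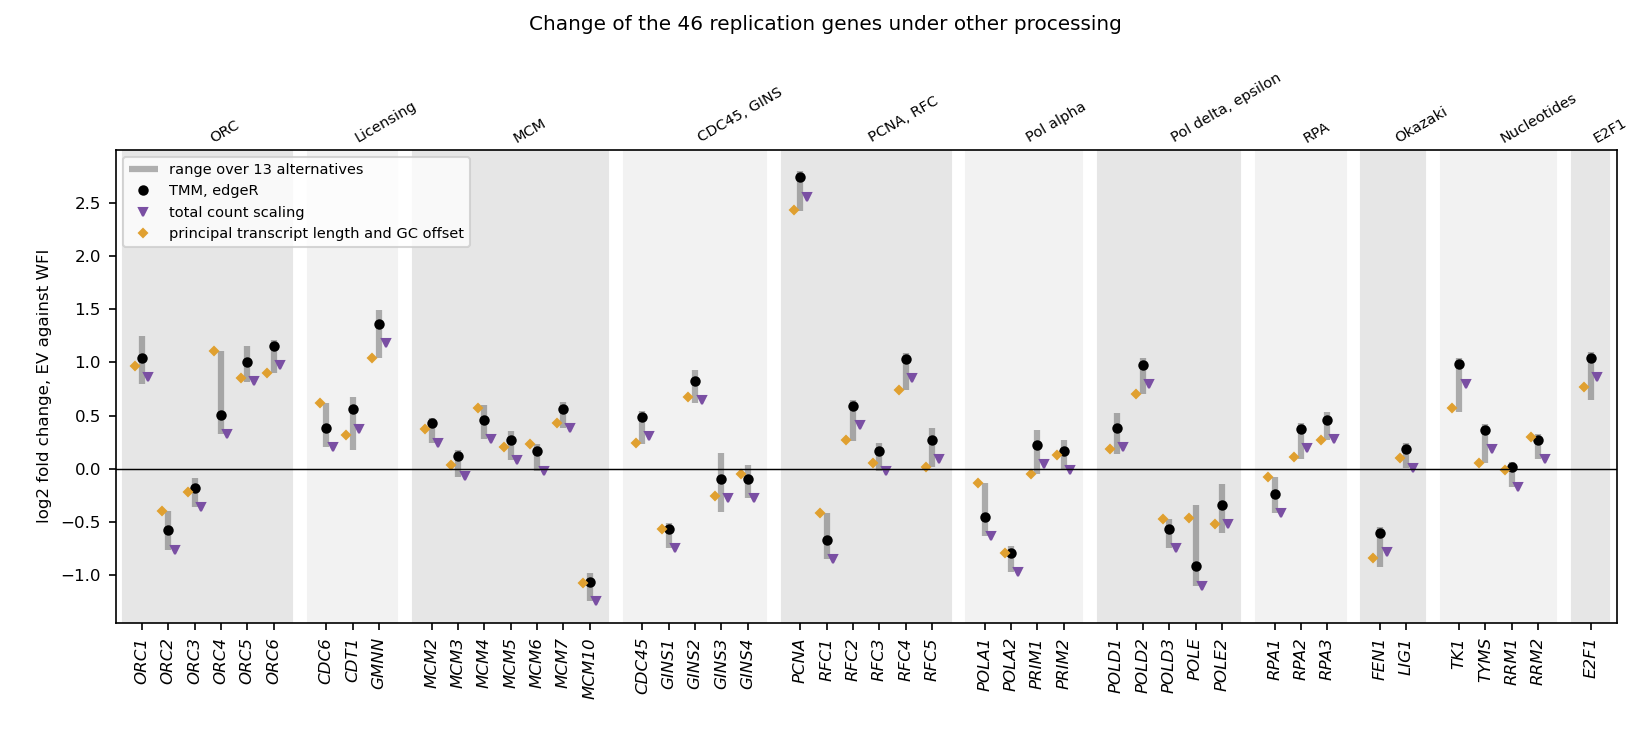
log2 fold change of the 46 replication genes with TMM scaling (black), with total count scaling (purple), with the principal transcript length and GC offset (orange) and the range over 13 alternatives (grey bars). Bars that cross 0 belong to genes with small changes such as MCM3, GINS3, GINS4 and RRM1; PCNA lies above 2.4 throughout.

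A further 74 genes of the pathway were read from the same fit, of which 29 rose, 23 fell and 22 were not called; their median log2 fold change was 0.07. This is 39.2% higher and 31.1% lower, close to the 34.5% and 31.5% of all genes tested. With total count scaling the split turned to 21 higher and 31 lower. The largest rises were those of NASP, LIN54 and ASF1B. NASP, a chaperone of H3-H4 histones, went from 170.3 and 177 CPM to 940.4 and 963 CPM (a log2 fold change of 2.45, SE 0.03, edgeR adjusted p = 8.29e-13). ASF1B, which hands histones to the assembly factor CAF-1, rose by 1.56 (SE 0.05), and LIN54, the DNA-binding subunit of the DREAM and MuvB complexes, by 1.57 (SE 0.06).

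The largest falls were those of TICRR, ATAD5 and RBL1. TICRR, which helps to load CDC45, went from 31.6 and 31.7 CPM to 9.01 and 11.7 CPM (a log2 fold change of -1.61, SE 0.13, edgeR adjusted p = 1.16e-06). With the principal transcript length and GC offset TICRR was at -1.23. ATAD5, which takes PCNA off DNA, went from 29.002 and 26.3 CPM to 11.9 and 9.04 CPM (-1.40, SE 0.14, edgeR adjusted p = 6.87e-06; -0.78 with the principal transcript length and GC offset). RBL1, the pocket protein p107, went from 49.97 and 45.98 CPM to 20.6 and 19.2 CPM (-1.27, SE 0.09, edgeR adjusted p = 5.04e-07).

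**Figure D5:**
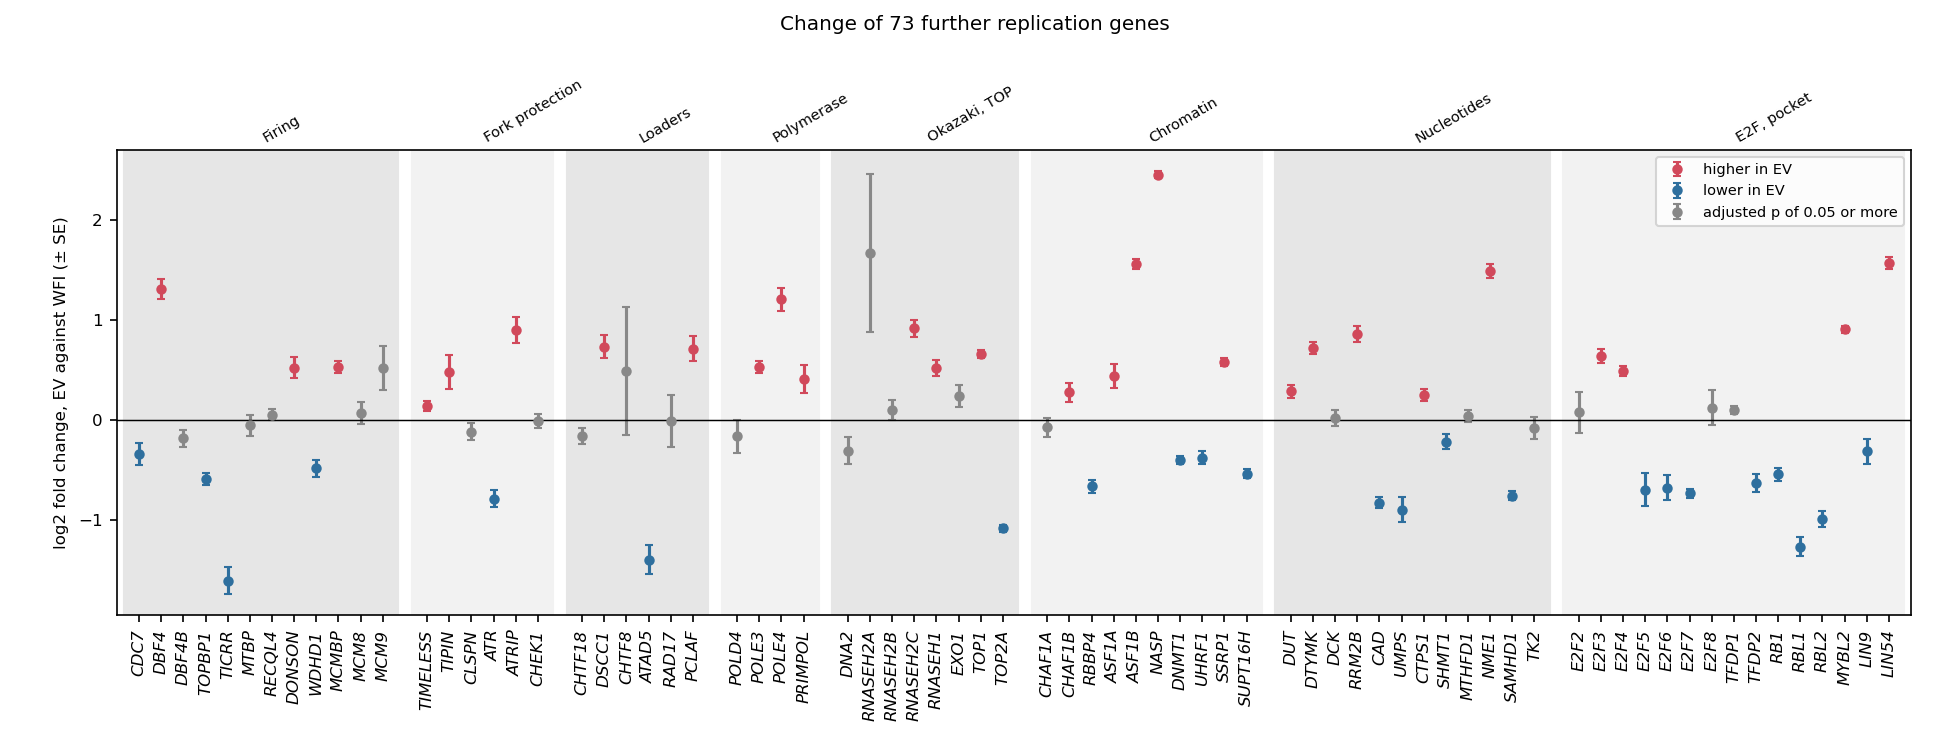
log2 fold change of EV against control with its standard error for 73 of the 74 further genes of the pathway, grouped by role, with red for genes called higher, blue for lower and grey for those that did not pass. NASP is the highest point among those called, and the group of E2F and pocket proteins holds the most blue points.

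By role, 3 of 12 firing factors rose (25%) and 4 fell (33.3%), beside 34.5% and 31.5% of all genes tested. DBF4, the regulatory subunit of the kinase that fires origins, rose from 21.9 and 27.2 CPM to 61.7 and 59.9 CPM (a log2 fold change of 1.31, SE 0.10, edgeR adjusted p = 7.16e-07), while the kinase CDC7 fell by 0.34 on the log2 scale (edgeR adjusted p = 0.0169). The CDC7 call was lost without WFI replicate 2 (edgeR adjusted p = 0.115), without EV replicate 1 (0.0534) and with DESeq2 (adjusted p = 0.0701). Their ratio, DBF4 to CDC7, went from 0.855 and 0.988 to 3.12 and 2.70.

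Of 15 E2F and pocket protein genes 4 rose (26.7%) and 8 fell (53.3%), beside 34.5% and 31.5% of all genes tested. E2F3, E2F4, MYBL2 and LIN54 rose, as E2F1 did (0.64, 0.49, 0.90 and 1.57 in log2 fold change). The pocket proteins RB1, RBL1 and RBL2 all fell, by -0.55, -1.27 and -0.99 in log2 fold change. E2F7, a repressor of the G1/S genes, fell from 192 and 192 CPM to 116 and 115 CPM (-0.74, SE 0.04). E2F5, E2F6, TFDP2 and LIN9 fell too, and E2F2, E2F8 and TFDP1 were not called. RB1, RBL1, RBL2 and E2F7 have principal transcripts longer than 4000 bases, as do E2F2, E2F3 and LIN54. Of coding genes that long, 17.4% rose and 63.8% fell. With the principal transcript length and GC offset RBL1 was at -0.91 and LIN54 at 2.00. Of 10 genes for chromatin behind the fork 5 rose (50%) and 4 fell (40%). The partners of the FACT complex moved apart, SSRP1 at 0.58 and SUPT16H at -0.54.

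Of 13 further genes of nucleotide supply 6 rose (46.2%) and 4 fell (30.8%), beside 34.5% and 31.5% of all genes tested. DUT, which makes the precursor of thymidylate and keeps uracil out of DNA, had a log2 fold change of 0.29 (edgeR adjusted p = 0.00273). Its call was lost without WFI replicate 1 (edgeR adjusted p = 0.054), without WFI replicate 2 (0.0796), with total count scaling (0.183) and with the principal transcript length and GC offset (0.121). CAD and UMPS, which make pyrimidines from scratch, fell by -0.83 and -0.90 in log2 fold change. Their principal transcripts are 7265 and 6738 bases long, and 63.8% of coding genes longer than 4000 bases fell. PCLAF, a small protein that binds PCNA, rose by a log2 fold change of 0.71 (SE 0.12), and 2 of 6 genes of alternative loaders and unloaders rose in all while 1 fell. All these lists are short, and their counts were not tested against the shares over all genes. Fork protection genes held 3 rises and 1 fall among 6, and accessory polymerase genes 3 rises and 0 falls among 4. Okazaki and topoisomerase genes held 3 rises and 1 fall among 8. That fall was TOP2A, the topoisomerase that untangles sister chromatids, which went from 460.4 and 455 CPM to 220.3 and 211 CPM (-1.09, SE 0.04). The principal transcript of TOP2A is also long, at 5758 bases.

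By GENCODE release 29, exons of 20 of the 46 genes overlap those of another gene, 6 of them on the same strand: FEN1, POLA2, POLD1, POLD3, PRIM1 and RRM2. The strand setting of the counting is not given in the sources used here, so the values of these 20 are uncertain to that extent. PCNA, GMNN, E2F1, ORC1, ORC5, ORC6, MCM10, RFC1 and POLE are not among them.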

How the data were processed

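Values are raw whole-number counts for each gene, as deposited by the authors; the build was hg38, per the submitters' processing notes. The aligner, the counting tool and its strand setting are not given in sources used here. Libraries were prepared with a directional kit, per the labels' protocols. Of 61860 identifiers 61757 matched a symbol, and 58308 are in GENCODE release 29.

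Counts were fitted with edgeR 4.0.16 in R 4.3.3 over all genes: TMM scaling, filterByExpr on group, quasi-likelihood test, group as the only term, 17465 genes tested. The standard error is the log2 fold change divided by the square root of F. The procedure was also run on simulated counts in which few genes changed. In these data 66% of the genes tested were called, so that run does not bear on the scaling here. Replicate counts varied beyond sampling noise (chi-square over degrees of freedom 2.25 in WFI, 4.72 in EV); each was counted as 1 sample, and whether the cultures were separate is not known from this. All 46 genes were named by rule, and of the further genes the 3 largest called rises and falls and some partners of the 46; others were cited after their values were seen. For 1 further gene, counted in its list, the values are not reported here. Members and lists were chosen with earlier results of these data known.

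Alternatives were DESeq2 1.42.0, RLE, upper quartile and total count scaling, no filter, a replicate block, a filter of 50 counts in 2 samples, each sample left out, a minimum log2 fold change of 1, and offsets for length (merged exons or principal transcript) with GC content.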

Additional observations from a re-analysis of the deposited data

How the results depend on the processing

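Over 13 alternatives, 19 of the 26 rises and 8 of the 10 falls among the 46 genes kept their direction and passed the test each time; MCM5, MCM6, RFC5, POLD1, RPA2, RPA3, TYMS, POLA1 and RPA1 did not in at least 1. Total count scaling and the principal transcript offset were chosen after seeing the data. Leaving out each sample in turn gave 22 to 27 higher and 10 to 11 lower, and 21 to 30 higher and 21 to 25 lower among the 74 further genes. With a minimum log2 fold change of 1 the counts were 7 and 1, and 6 and 4 among the 74 further genes, beside 17.5% and 13.3% of all genes tested. The labels do not state that equal replicate numbers pair samples, and their deviations correlated at 0.009; with a replicate block 26 rose and 10 fell, 29 and 24 among the further genes, and no call among the 46 changed. Genes that turned sign had small changes, and the cause was not tested. With total count scaling these were MCM3 (-0.0651), MCM6 (-0.0169), RFC3 (-0.0186), PRIM2 (-0.0094) and RRM1 (-0.17, the only one called). With the merged-exon length and GC offset they were MCM3 (-0.0744) and RRM1 (-0.0449), and with the principal transcript offset PRIM1 (-0.0544) and RRM1 (-0.0146). RRM1 was at -0.0651 with no count filter. With each sample left out, RRM1 ran from -0.0631 to 0.0598, GINS3 from -0.4098 to 0.14, GINS4 from -0.2663 to 0.0323 and the median of CDC45 and GINS from -0.0432 to 0.14. POLE2, with 81 to 144 counts, had the lowest depth of the 46 and the largest standard error (0.24).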
